A study of Mus musculus with 12 samples.

Results

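Tia1 and 9 further genes of RNA-binding proteins that gather in stress granules were followed in the lateral septum of mice, a nucleus of the basal forebrain. The 10 genes, Tia1, Tial1, G3bp1, G3bp2, Caprin1, Elavl1, Pabpc1, Atxn2, Fmr1 and Tardbp, were taken by symbol from a table of 54532 genes, each symbol matched 1 row, and all 10 passed the expression filter that 13345 genes passed. The table holds 12 bulk RNA sequencing libraries of wild-type mice at day 3, 6 injected with saline (control) and 6 with CFA. The labels do not spell CFA out; in work on inflammatory pain it usually stands for complete Freund's adjuvant, which inflames the injected tissue for days. The series title places microglial TIA1 and NF-kB signalling at the centre of the study, and its design compares saline with CFA. The labels give no age, sex or strain. Nor do they tie each library to an animal of its own, so the p-values rest on the spread among libraries, part of which can be technical.

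Stress granules are assemblies of messenger RNA and protein that form in the cytoplasm when the start of translation is blocked, usually after phosphorylation of the initiation factor eIF2 alpha. G3BP proteins scaffold them, Caprin1 binds G3BP and favours assembly, and TIA1 and its close relative TIAL1 join through RNA recognition motifs and a glutamine-rich tail. Outside granules, TIA1 and TIAL1 bind U-rich RNA in the nucleus, where they steer splicing with the U1 snRNP, and AU-rich elements of cytokine messages, whose translation TIA1 restrains. The libraries measure messenger RNA, not granules, and not protein.

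Recovered depth was 33.6 to 39.2 M reads per library. The tissue carried markers of septal neurons, with Zic1 at 75.4 to 132 FPKM (fragments per kilobase of gene length and unit of library size) and Trpc4 at 12.6 to 18.4 FPKM over all libraries, and of microglia, with Tmem119 at 7.39 to 10.5 FPKM. Microglia are a small part of such tissue, and the 10 genes are transcribed in most cell types, so no level here belongs to microglia. In whole tissue, fewer cells of a type and less RNA per cell cannot be told apart. Xist exceeded 1 FPKM in 2 of the saline and 5 of the CFA libraries. The Y-linked Ddx3y was at most 0.0202 FPKM in those libraries and 13.9 to 15.4 FPKM in all others. By these 2 genes sex was unevenly spread over the groups, so it is partly confounded with CFA. Choroid plexus RNA (Ttr up to 2259 FPKM) was high in saline 3 and saline 5.

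The most abundant of the 10 transcripts per length was Caprin1, at 30.2 FPKM over the 12 libraries, and the least abundant was Tia1, at 5.52 FPKM. Between them stood Pabpc1 (23.6 FPKM), G3bp2 (22.8 FPKM), Tardbp (19.0 FPKM), G3bp1 (14.1 FPKM), Tial1 (13.7 FPKM), Elavl1 (10.2 FPKM), Atxn2 (8.35 FPKM) and Fmr1 (6.88 FPKM). Caprin1 and Pabpc1, Tardbp and G3bp1, and Tial1 and Elavl1 are neighbours in that order whose ranges did not overlap. Pabpc1 was above G3bp2 in 8 of 12 libraries and G3bp1 above Tial1 in 8 of 12, so neither pair is ordered beyond its spread. Fmr1 was above Tia1 in 11 of 12 libraries, CFA 6 being the exception, with 7.22 FPKM of Fmr1 and 7.55 FPKM of Tia1. Tial1 was above Tia1 in every library, and the mean ratio of Tia1 to Tial1 FPKM was 0.399 ± 0.0372 (SD, n = 6) for saline libraries and 0.403 ± 0.0624 (SD, n = 6) for CFA libraries (exact permutation p = 0.900, two-sided).

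These levels depend on the length that the authors divided by, which for all 10 genes equals the summed exons of every GENCODE M21 transcript of the gene. Tia1 (ENSMUSG00000071337; chromosome 6, 86404219 to 86433405, plus strand, GRCm38) has a length of 15750 bases from 28 annotated transcripts, of which 5 are protein-coding and 14 are of the retained intron class. Of that length, 71.5% lies outside exons of protein-coding transcripts. Tial1 (chromosome 7, 128439777 to 128461717, minus strand) has 14 transcripts, 4 of them with a retained intron, over 6903 bases, 34.6% of it outside protein-coding exons. Atxn2 (chromosome 5, 121711337 to 121816493, plus strand) resembled Tia1 with 71.5% of 15689 bases. Tardbp (chromosome 4, 148612382 to 148627019, minus strand) has 30 transcripts, but 0.513% of its 7796 bases lie outside protein-coding exons. Reads counted for Tia1 can therefore come from messenger RNA or from transcripts that keep an intron, which the values do not separate. Of genes that overlap a member, Sh2b3 on the other strand at the 3′ end of Atxn2 was the highest (4.14 FPKM), and the sources used here do not say whether counting used strand.

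The bases before the start sites of Tia1 and of the 3 members with the highest correlation to it across libraries are shown. Only Tial1 passed the regression on Tia1 over all genes, and the r of Fmr1 rested on 1 library. Sequences are from RefSeq (GRCm38.p6), read 5′ to 3′ on the gene's strand, and stop before the first base that RefSeq or GENCODE gives as transcribed. Capitals mark the palindrome bound by nuclear respiratory factor 1 (NRF1) in Fmr1, and the core bound by ZNF143, which lies on the reverse strand, in Tial1. Tia1 is at chr6:86403969-86404218 on the plus strand, Tial1 at chr7:128461718-128461923 on the minus strand, Fmr1 at chrX:68678291-68678540 on the plus strand and Tardbp at chr4:148627020-148627246 on the minus strand.
Tia1: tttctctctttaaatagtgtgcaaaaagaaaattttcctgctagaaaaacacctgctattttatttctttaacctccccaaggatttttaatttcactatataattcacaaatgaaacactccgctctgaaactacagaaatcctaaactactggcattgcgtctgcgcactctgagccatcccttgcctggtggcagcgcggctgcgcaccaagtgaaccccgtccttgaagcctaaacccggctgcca
Tial1: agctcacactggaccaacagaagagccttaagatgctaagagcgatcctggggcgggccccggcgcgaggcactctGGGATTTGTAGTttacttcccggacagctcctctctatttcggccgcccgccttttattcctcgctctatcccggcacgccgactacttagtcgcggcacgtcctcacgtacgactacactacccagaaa
Fmr1: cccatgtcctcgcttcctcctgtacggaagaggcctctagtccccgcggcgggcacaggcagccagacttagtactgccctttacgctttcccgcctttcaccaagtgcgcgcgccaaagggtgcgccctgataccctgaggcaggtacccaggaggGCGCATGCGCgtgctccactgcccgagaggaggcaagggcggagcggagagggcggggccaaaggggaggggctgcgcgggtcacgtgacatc
Tardbp: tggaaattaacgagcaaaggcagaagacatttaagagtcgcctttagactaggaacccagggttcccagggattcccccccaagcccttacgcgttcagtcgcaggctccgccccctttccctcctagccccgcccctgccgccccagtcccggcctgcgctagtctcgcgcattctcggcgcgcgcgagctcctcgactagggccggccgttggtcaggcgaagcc

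Motifs were searched on both strands in windows of 300 bases, 250 before and 50 after the RefSeq start. Such a window was at hand for 9 of the 10 members. Pabpc1 had none and was not searched. The NRF1 letters in capitals in Fmr1, at bases -93 to -84, also occur once in Tia1, at bases 27 to 36 counted with the first transcribed base as 1, and so lie outside the run printed for Tia1. They are in 0.971% of the 32851 promoter windows of the table and in no other of the 9 members searched. Tial1 has 2 copies of the ZNF143 core, at bases -174 to -163 and -4 to 8, and 1.81% of windows have one. The GC box GGGCGG, in 35.7% of windows, occurs 3 times in Tardbp, 2 times each in Tial1, Fmr1, Atxn2 and G3bp2, once in G3bp1 and 6 times in Caprin1, where some copies overlap. Tia1 and Elavl1 have none. Tia1 also has neither CCAAT (37.4% of windows) nor TATAAA (13.6% of windows). Among the 9 members CCAAT occurs only in G3bp1, G3bp2 and Elavl1, and TATAAA only in G3bp1. The 250 bases before the RefSeq start are 44% G and C in Tia1, 58.8% in Tial1, 67.2% in Fmr1 and 63.6% in Tardbp. The median over all windows is 52.4%. The runs printed for Tial1 (206 bases) and Tardbp (227 bases) are shorter than that stretch. CACGTG (7.15% of windows) occurs once in Fmr1 and once in Atxn2, CCGGAAG (8.86%) once in Atxn2 and TGACGTCA (1.79%) in none of the 9 members searched. The kappa B motif of NF-kB, in 4.51% of windows, occurs once in Tardbp, at bases -182 to -173, once in G3bp2, at bases -183 to -174, and not in the Tia1 window. A match is a string of letters, not a measured binding site.

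Tia1 was similar in both groups. In saline its lowest, median and highest values were 4.43, 5.24 and 6.48 FPKM, and in CFA 3.64, 5.58 and 7.55 FPKM. The CFA libraries held both ends of the range, CFA 4 below every saline library and CFA 1 (6.87 FPKM) and CFA 6 above all of them. The means were 5.31 ± 0.815 and 5.72 ± 1.38 FPKM (SD, n = 6 libraries a group). The log2 fold change, which is CFA minus saline on log2(FPKM + 1), was 0.07 (SE 0.13, 95% interval -0.21 to 0.36, limma adjusted p = 0.939). As a ratio of FPKM + 1, CFA over saline, that interval runs from 0.865 to 1.28.

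**Figure D1:**
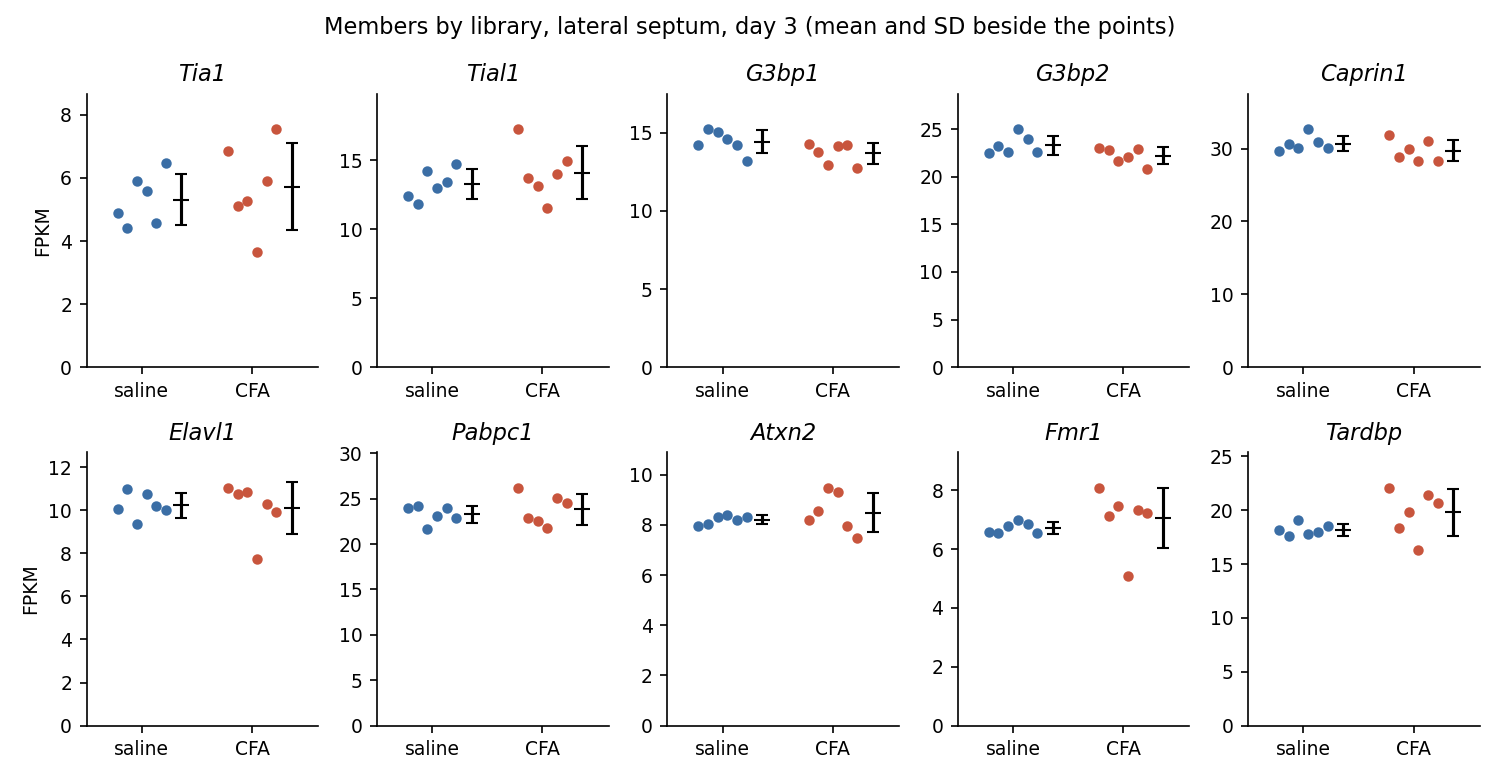
FPKM (vertical axis, from 0) of each of the 10 genes in 6 saline (blue) and 6 CFA (red) libraries, with points in order of the replicate number and the mean and SD in black. The groups overlap in every panel, Tia1 spreads from 3.64 to 7.55 FPKM, and 1 CFA library, CFA 4, is lowest for Fmr1 at 5.09 and Elavl1 at 7.75.

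Across the 10 genes, 0 passed the threshold of 0.05 between CFA and saline by limma with Benjamini-Hochberg adjustment over 13345 genes, of which 4 (0.0300%) passed. At an unadjusted p under 0.05 there were 0 of 10, against 7.67% of all tested genes. The 2 groups overlapped for all 10, whereas 0.495% of tested genes had groups that did not. The log2 fold changes ran from -0.07 to 0.11, with 6 positive, 4 negative and a median of 0.04, beside 48.0% positive and a median of -0.00427 over all tested genes.

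The scaffold genes had small negative values. G3bp1, whose protein nucleates granules, had a lowest, median and highest value of 13.2, 14.4 and 15.2 FPKM in saline and 12.7, 14.0 and 14.3 FPKM in CFA (log2 fold change -0.07, SE 0.04, limma adjusted p = 0.765). Its relative G3bp2 had 22.5, 23.0 and 25.0 FPKM in saline and 20.8, 22.4 and 23.0 FPKM in CFA (-0.07, SE 0.04, limma adjusted p = 0.739). For G3bp2, 3 of 6 CFA libraries lay below every saline library and none above (exact permutation p = 0.0671, two-sided). Caprin1, the G3BP partner that promotes assembly, had 29.7, 30.4 and 32.7 FPKM in saline and 28.3, 29.4 and 31.8 FPKM in CFA (-0.04, SE 0.04). In Caprin1 too, 3 CFA libraries lay below every saline library.

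The other granule proteins bind or guard messenger RNA. Tial1 had 11.8, 13.2 and 14.8 FPKM in saline and 11.5, 13.9 and 17.2 FPKM in CFA (0.07, SE 0.08, limma adjusted p = 0.872). Its highest value was in CFA 1 and its lowest in CFA 4. Pabpc1, the cytoplasmic poly(A)-binding protein, had 21.7, 23.5 and 24.2 FPKM in saline and 21.8, 23.7 and 26.2 FPKM in CFA (0.03, SE 0.05). Elavl1, which encodes HuR, a stabiliser of AU-rich messages, had 9.36, 10.1 and 11.0 FPKM in saline and 7.75, 10.5 and 11.0 FPKM in CFA (-0.02, SE 0.07). Its sign turned when values were rescaled to TPM (0.0149) and without CFA 4 (0.0456), so it has no settled direction.

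Atxn2, Fmr1 and Tardbp spread more among CFA than among saline libraries, Fmr1 and Tardbp in large part through CFA 4. Atxn2, which encodes ataxin-2, a partner of the poly(A)-binding protein, had 7.96, 8.25 and 8.40 FPKM in saline and 7.46, 8.37 and 9.48 FPKM in CFA (0.04, SE 0.05). Of its CFA libraries 3 were above all saline libraries and 2 below. Fmr1, the X-linked gene of the translational repressor FMRP, had 6.53, 6.68 and 6.99 FPKM in saline and 5.09, 7.26 and 8.08 FPKM in CFA (0.05, SE 0.08, limma adjusted p = 0.928). Of 6 CFA libraries 5 stood above every saline library, and CFA 4 stood below every one. Tardbp, which encodes the splicing regulator TDP-43, had 17.6, 18.1 and 19.1 FPKM in saline and 16.3, 20.3 and 22.1 FPKM in CFA (0.11, SE 0.06, limma adjusted p = 0.734; exact permutation p = 0.104, two-sided). Here 4 CFA libraries were above every saline library and CFA 4 was again below.

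The coefficient of variation in CFA was at least 3 times that in saline for 3 of the 10 genes (Atxn2 9.32% against 2.19%, Fmr1 14.5% against 2.84%, Tardbp 10.8% against 3.07%), where 6.00% of all tested genes had such a ratio. Without CFA 4 it was 1 of 10, Atxn2 with 9.11%, where 3.55% of tested genes had such a ratio, and the CFA value fell to 5.11% for Fmr1 and 7.07% for Tardbp. With all libraries, in 8 of 10 genes the coefficient was higher in CFA, as it was for 71.3% of tested genes. Over all 12 libraries Tia1 had a coefficient of variation of 20.0%, the highest of the 10. Of the 5868 tested genes with a mean within the range of the members, 5.74% varied more than Tia1 and the median was 8.13%. Tia1 had at least 2027 recovered reads in each library, a counting error of at most 2.22%.

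CFA 4 thus weighed on several values. Without it, 2 members had an unadjusted p under 0.05, Tardbp (log2 fold change 0.16, limma adjusted p = 0.168) and Fmr1 (0.13, limma adjusted p = 0.192), and still 0 of 10 passed. In that comparison 13.8% of all tested genes had such a p. Tia1 then had 0.18 (limma adjusted p = 0.492). Xist stood at 34.9 FPKM in CFA 4. In the other 4 CFA libraries with Xist, Fmr1 was 7.13 to 8.08 FPKM, and in saline 2 and saline 5, which also had Xist, it was 6.53 and 6.85 FPKM. Fmr1 was thus lower in CFA 4 than in each of the other 6 libraries with Xist.

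**Figure D2:**
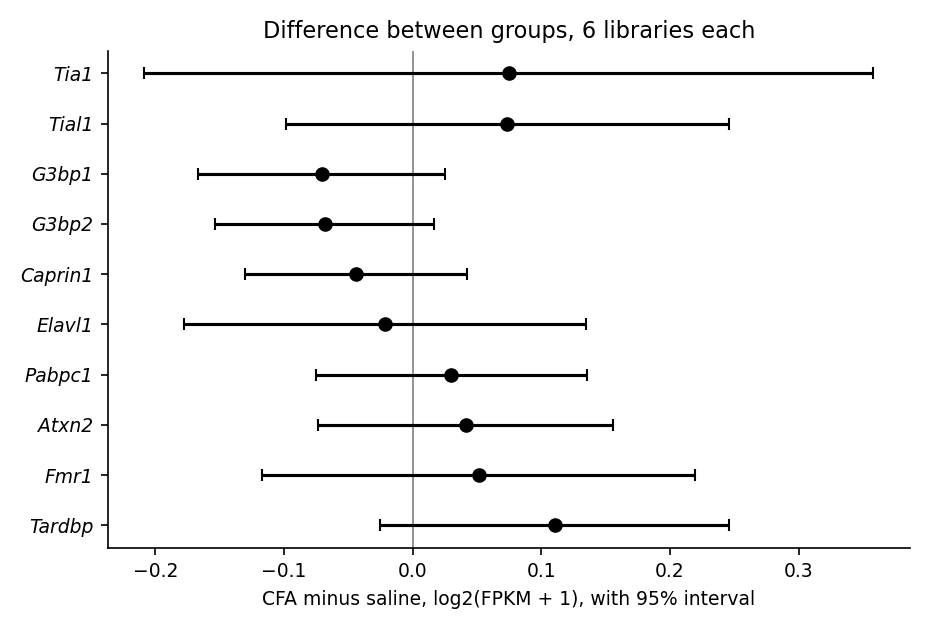
Log2 fold change, CFA minus saline on log2(FPKM + 1) (horizontal axis), of the 10 genes with its 95% interval from limma, 6 libraries a group. Every interval includes 0, and that of Tia1, from -0.21 to 0.36, is the widest.

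Tia1 moved with its relative Tial1 from library to library, in both groups. Over the 12 libraries Tia1 and Tial1 had a Pearson r of 0.86 (permutation p = 0.00044) and a Spearman rho of 0.91 (permutation p = 0.00013) on log2(FPKM + 1). Within groups r was 0.83 in saline (exact permutation p = 0.0542) and 0.87 in CFA (exact permutation p = 0.0361), n = 6 each. Without CFA 4 and CFA 6, the 2 libraries farthest from the Tia1 median, r was 0.86. The slope was 0.52 log2 units of Tial1 per log2 unit of Tia1. In a limma regression of every tested gene on Tia1, Tial1 passed the threshold (adjusted p = 0.0415 over 13344 genes), 1 of the 9 members to do so, while 0.629% of genes passed with a positive slope and 0.127% with a negative one. With the group as a further term Tial1 did not pass (limma adjusted p = 0.0596), and then 0.405% of genes passed with a positive and 0.0450% with a negative slope.

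Tardbp and Fmr1 followed the same order less tightly. Tia1 and Tardbp had r = 0.80 (permutation p = 0.00188) and rho = 0.82 (permutation p = 0.00182), and r = 0.69 without CFA 4 and CFA 6. Within groups r was 0.70 in saline and 0.89 in CFA. Tia1 and Fmr1 had r = 0.71 (permutation p = 0.00934) and rho = 0.57 (permutation p = 0.0549). That relation rested on CFA 4, since r was 0.48 without it and 0.50 without CFA 4 and CFA 6, and r within saline was 0.07. Neither gene passed over all genes (limma adjusted p = 0.0863 for Tardbp and 0.141 for Fmr1). An r to Tia1 as high as that of Tial1 was found for 0.457% of tested genes, as high as that of Tardbp for 1.20% and as high as that of Fmr1 for 3.12%.

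For 3 members the relation to Tia1 had opposite signs in the 2 groups, Pabpc1, Atxn2 and Elavl1. Pabpc1 had r = -0.80 in saline (exact permutation p = 0.0528) and 0.84 in CFA (exact permutation p = 0.0278), n = 6 each. Over all 12 libraries its r was 0.43 (permutation p = 0.158) and its rho 0.28 (permutation p = 0.380). Atxn2 had r = 0.75 in saline (exact permutation p = 0.104) and -0.82 in CFA (exact permutation p = 0.0431), and -0.53 over all 12 (permutation p = 0.0753; rho = -0.27, permutation p = 0.388), which became 0.0304 without CFA 4 and CFA 6. Elavl1 had r = -0.53 in saline (exact permutation p = 0.285) and 0.68 in CFA (exact permutation p = 0.174), n = 6 each. The difference between groups was not tested, and the p-values within groups are not adjusted. How many of all tested genes had opposite signs in 2 such groups of 6 is not given here, so the 3 have no background. The limma regression over all genes called none of the 3 (adjusted p = 0.483 for Pabpc1, adjusted p = 0.371 for Atxn2 and adjusted p = 0.478 for Elavl1).

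Apart from Tial1, no member had a relation to Tia1 that passed over all genes. Elavl1 had r = 0.40 and rho = -0.02 over all 12 (permutation p = 0.197 and 0.958). Its r rested on CFA 4, being -0.27 without that library, 0.52 without CFA 6 and -0.13 without both. Of the scaffold genes, G3bp1 had r = -0.42 and rho = -0.24 (permutation p = 0.182 and 0.447), G3bp2 had r = -0.23 and rho = -0.17 (permutation p = 0.472 and 0.603), and Caprin1 had r = 0.19 and rho = 0.22 (permutation p = 0.549 and 0.498). Without CFA 4 and CFA 6 these r were -0.23, -0.13 and 0.31. They moved with the scale: on TPM G3bp1 had -0.0688, G3bp2 0.22 and Caprin1 0.56 (permutation p = 0.0560), beside 0.57 for Elavl1.

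**Figure D3:**
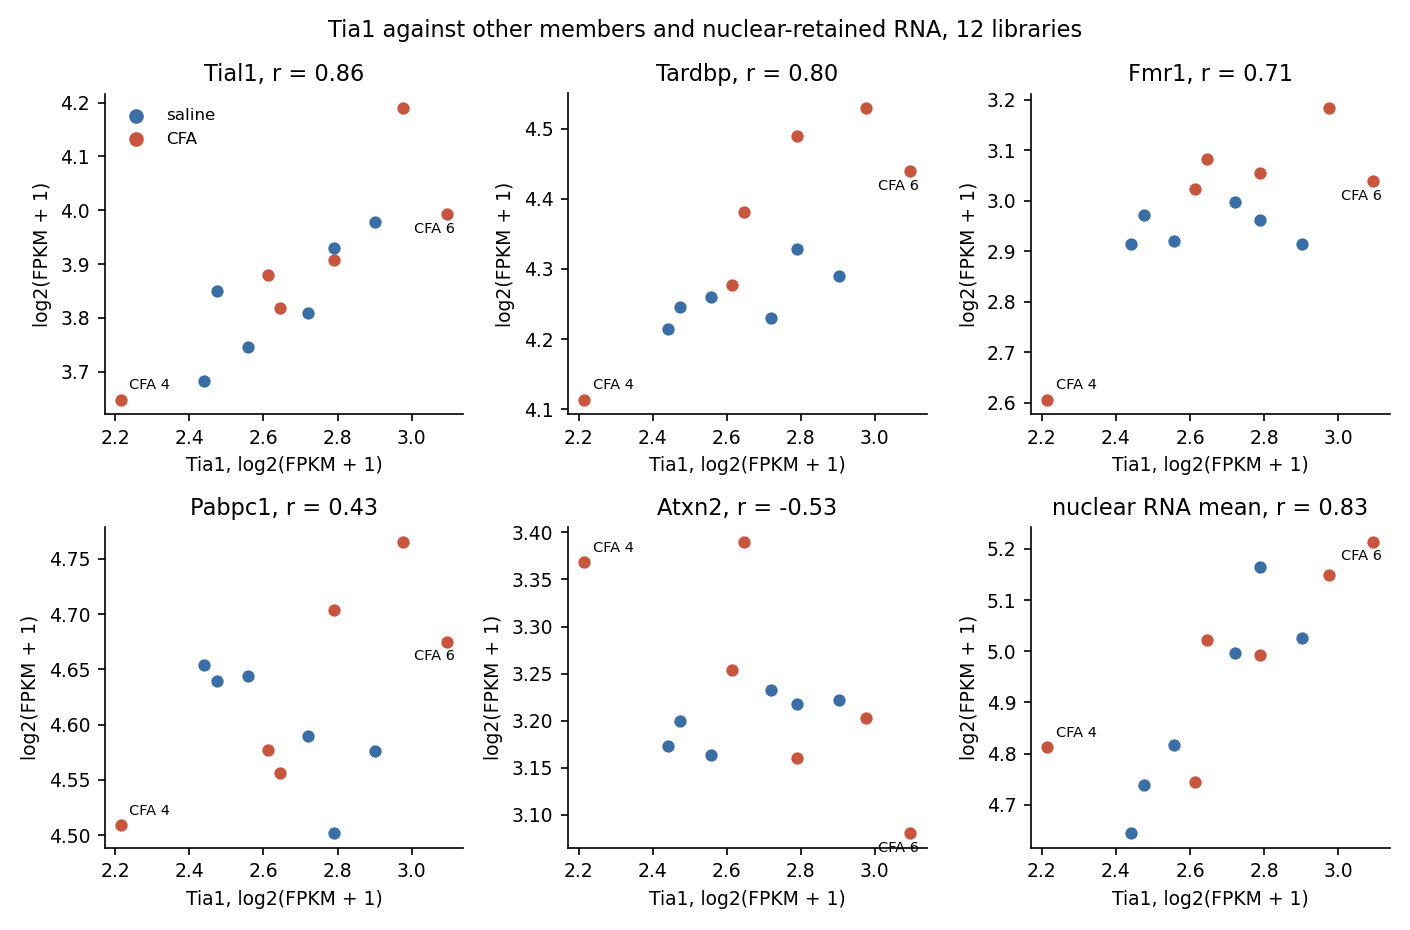
Each of 5 members, and in the last panel the mean of 6 nuclear-retained RNAs (vertical axes, log2(FPKM + 1)), against Tia1 (horizontal axis, log2(FPKM + 1)) in 6 saline (blue) and 6 CFA (red) libraries; titles give Pearson's r. Tial1 and Tardbp rise along the whole range, Fmr1 falls away at CFA 4 alone, and the saline and CFA points of Pabpc1 and Atxn2 run in opposite directions.

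Among all 45 pairs of members, r was positive in 27 and at least 0.7 in 8, which is 17.8% of pairs where 1.40% of all pairs of tested genes reached that value. The median r was 0.26, against 0.00 over all pairs. These are descriptions of 12 libraries that share composition and scale. The 8 pairs formed 2 sets. In one, Tia1, Tial1, Tardbp and Fmr1 were all joined, with Fmr1 and Tardbp at 0.83, Tial1 and Tardbp at 0.81 and Tial1 and Fmr1 at 0.72, and Elavl1 was attached to Fmr1 (0.84). The other held G3bp2 and Caprin1 (0.79), with G3bp1 and G3bp2 at 0.65. Fmr1 and Elavl1 share the single low library CFA 4. Without CFA 4 the r of Tia1 and Fmr1 was 0.48. The pairs of Fmr1 with Tial1, Tardbp and Elavl1, and the count of 8 pairs, were not computed again without that library.

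**Figure D4:**
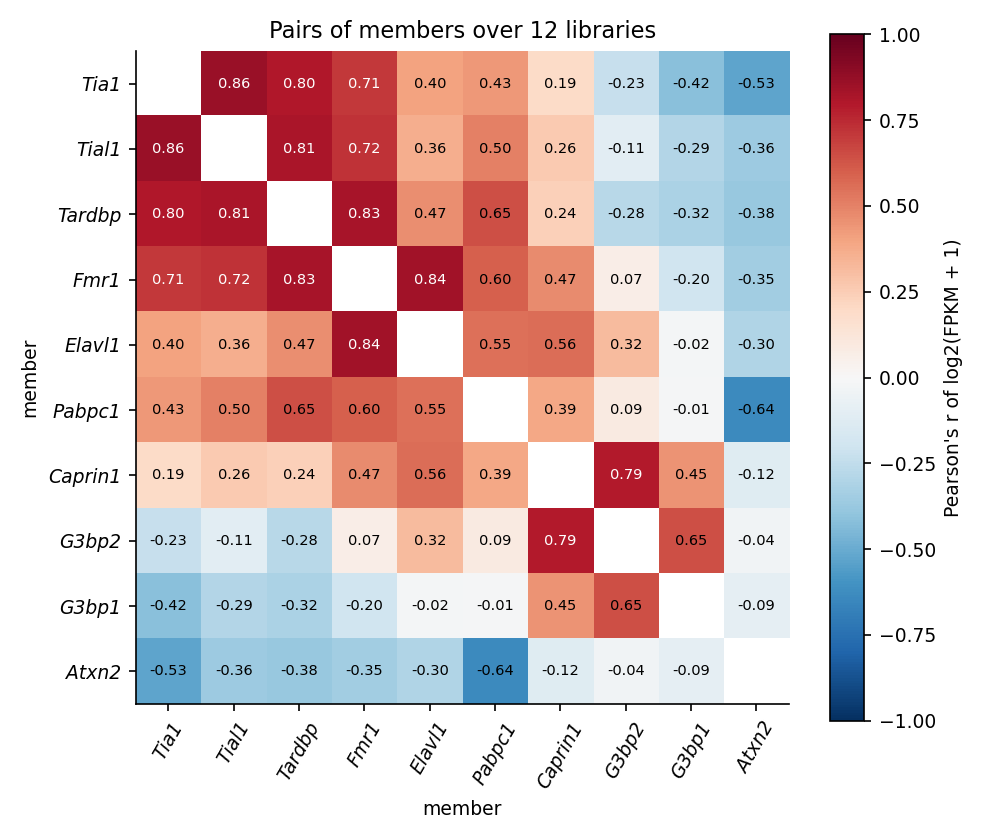
Pearson's r of log2(FPKM + 1) between each pair of the 10 members over 12 libraries, in numbers and colour (red positive, blue negative). Tia1, Tial1, Tardbp and Fmr1 form a block of r from 0.71 to 0.86, and G3bp2 pairs with Caprin1 at 0.79. Without CFA 4 the r of Tia1 and Fmr1 was 0.48.

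The genes most like Tia1 were taken by r over the 12 libraries, from 7544 genes with a mean of at least 5 FPKM. They were Ttc14 (r = 0.96, 5.05 to 11.4 FPKM), Ccnl1, which encodes cyclin L1 of the splicing machinery (0.96, 3.60 to 7.34 FPKM), Wsb1, a ubiquitin ligase adaptor (0.95, 14.2 to 25.8 FPKM), the long noncoding RNA Snhg11 (0.94, 66.2 to 129.7 FPKM) and Rbm39, a splicing cofactor (0.94, 23.3 to 34.4 FPKM). The least like were Lrrc47 (-0.93), the corepressor gene Trim28 (-0.92), Soga1 (-0.91), the fatty acid synthase gene Fasn (-0.90) and Tecpr1 (-0.90). Lrrc47 varied only between 11.6 and 13.7 FPKM, and Trim28 between 31.3 and 34.5 FPKM. Neither passed the limma regression on Tia1 over all genes (adjusted p = 0.0798 and 0.184), while Soga1, Fasn and Tecpr1 did. In the list of splicing partners, the kinase genes Clk4 (r = 0.84) and Clk1 (0.82), whose own RNA is known to keep introns, were also near Tia1.

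Genes with a high r to Tia1 had a larger share of their length outside protein-coding exons. The median share of gene length outside them was 31.2% for the 375 tested genes with r of at least 0.7, 14.7% for the 413 with r of at most -0.7 and 13.9% for all 12040 with a protein-coding transcript. A transcript of the nonsense-mediated decay class was annotated for 46.4%, 26.2% and 27.9% of these genes, and a retained intron transcript for 72.0%, 63.4% and 57.6%. The first set also had a lower level, a median of 4.97 FPKM against 19.3 and 7.33. These are across genes, which are not independent replicates, and no test was made.

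The mean of a list of nuclear-retained RNAs moved with Tia1, though not each of its members did so closely. The mean log2(FPKM + 1) of 6 such transcripts (Malat1, Meg3, Miat, Snhg11, Rian and Mirg, a list drawn up as a quality measure) had r = 0.83 (permutation p = 0.00068) and rho = 0.90 (permutation p = 0.00015) to Tia1, and r = 0.88 without CFA 4 and CFA 6 (Benjamini-Hochberg adjusted permutation p = 0.00847 for r over 14 library measures). Of the 6, all had a positive r to Tia1, from Malat1 at 0.16 and Mirg at 0.27 to Meg3 at 0.88 and Snhg11 at 0.94. In the limma regression on Tia1, 2 of the 6 passed with a positive slope, where 0.629% of all genes did. The mean ran from 4.64 to 5.16 in saline and from 4.74 to 5.21 in CFA, so the groups overlapped. Snhg11 is also among the 5 genes most like Tia1. With this mean regressed out of both genes, an alternative added after the relation was seen, r to Tia1 was 0.69 for Tial1, 0.68 for Fmr1 and 0.57 for Tardbp, and it was 0.72 for Elavl1, 0.62 for Pabpc1 and -0.70 for Atxn2. The list held 8 transcripts, of which Neat1 and Kcnq1ot1 did not pass the expression filter. With the mean of all 8 as a covariate the log2 fold change of Tia1 was -0.0292 (limma adjusted p = 0.969).

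Of the cell type lists, genes that mark projection neurons of the adjoining striatum had the highest r to Tia1, 0.59 (permutation p = 0.0432, Benjamini-Hochberg adjusted 0.202; rho = 0.53, permutation p = 0.0783), and 0.47 without CFA 4 and CFA 6. All 8 tested markers had a positive r to Tia1, where 47.1% of all tested genes did. Within groups r of their mean to Tia1 was -0.24 in saline and 0.83 in CFA, and the difference was not tested. Their mean ran from 2.90 to 3.84 in saline and from 2.90 to 4.70 in CFA. With it regressed out, r to Tia1 was 0.78 for Tial1, 0.67 for Tardbp and 0.58 for Fmr1. The microglia list had r = 0.18 (permutation p = 0.578; rho = 0.07, permutation p = 0.834; 0.43 without CFA 4 and CFA 6), and 9 of its 12 tested markers had a positive r. A positive r was found for 1 of 7 astrocyte, 0 of 8 oligodendrocyte, 0 of 5 ependyma and 0 of 4 choroid plexus markers. It was found for 1 of 6 erythroid, 3 of 8 pan-neuronal, 2 of 9 septal and GABA neuron and 4 of 6 endothelial markers. The astrocyte list had r = -0.56 (permutation p = 0.0611, Benjamini-Hochberg adjusted 0.214), and 0.04 without CFA 4 and CFA 6.

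**Figure D5:**
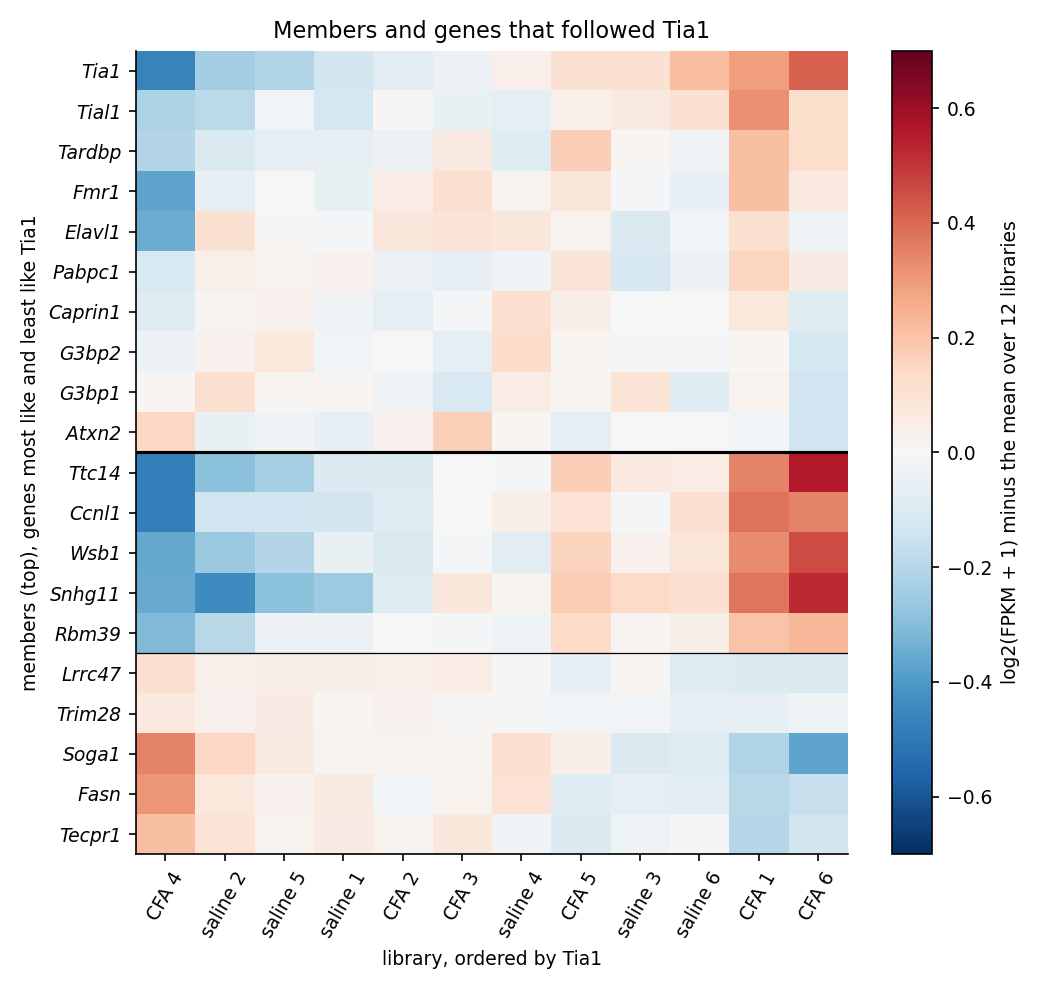
Log2(FPKM + 1) minus the gene's mean over 12 libraries (colour, red above and blue below the mean) for the 10 members, the 5 genes most like Tia1 and the 5 least like it, with libraries ordered by Tia1 from CFA 4 (3.64 FPKM) to CFA 6 (7.55 FPKM). Saline and CFA libraries are mixed along the order, and Tial1, Ttc14, Ccnl1, Wsb1, Snhg11 and Rbm39 run with Tia1.

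Genes around the 10 members were described by 7 lists, with counts in place of a test. Of 98 tested genes in these lists, 0 passed between CFA and saline by limma with Benjamini-Hochberg adjustment, and 7 had an unadjusted p under 0.05, beside 7.67% of all tested genes. Partners inside granules (22 tested) had 9 positive, 13 negative and a median of -0.01, and proteins of the FET and hnRNP families (10 tested) had 7 positive, 3 negative and a median of 0.04. AU-rich element binders and ELAV relatives (11 tested) had a median of -0.02, the eIF2 alpha kinases and integrated stress response (13 tested) 0.00842, P-body and decay genes (15 tested) 0.02 and U1 snRNP and splicing partners (13 tested) 0.04. Granule disassembly genes (14 tested) had 12 negative, 2 positive and a median of -0.06. Cell type markers leaned between the groups as well: 0 of 9 septal and GABA neuron markers and 0 of 8 pan-neuronal markers had a positive log2 fold change (medians -0.13 and -0.08), while all 8 striatal, all 8 oligodendrocyte and all 6 erythroid markers did (medians 0.51, 0.15 and 0.67). So did 0 of 4 choroid plexus, 5 of 5 ependyma, 3 of 7 astrocyte and 3 of 6 endothelial markers. Microglia markers went both ways, with 6 of 12 positive, and 5 of the 12 had an unadjusted p under 0.05. C1qa ran from 25.4 to 30.2 FPKM in saline and from 30.7 to 40.4 FPKM in CFA. Csf1r ran from 14.8 to 18.8 FPKM in saline and from 10.2 to 15.1 FPKM in CFA. None of these markers passed, and their part in the values of the lists and members was not tested.

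The 3 genes with the smallest p in each list are named here, and none passed. In the stress response list, Ppp1r15a, which encodes GADD34, the eIF2 alpha phosphatase subunit, averaged 3.86 ± 0.303 FPKM for saline and 4.50 ± 0.376 FPKM for CFA (SD, 6 libraries a group; log2 fold change 0.18, limma adjusted p = 0.420), followed by the double-stranded RNA kinase gene Eif2ak2 (0.20) and Atf4 (0.12). In the disassembly list, Hspa8, the constitutive HSC70 chaperone gene, was 358 ± 69.2 and 431 ± 30.1 FPKM (0.29, limma adjusted p = 0.560), Faf2 had -0.10 and Hspb8, a small heat shock protein gene, had -0.23. Among partners, Ddx3x, an X-linked RNA helicase gene, was 56.4 ± 8.62 and 66.8 ± 7.93 FPKM (0.24, limma adjusted p = 0.608), while Eif4g1 and Fxr2 both had -0.07. Ddx3x escapes X inactivation in mice, and its values stand beside the uneven Xist of the groups. The part of Xist-linked differences in the Ddx3x values was not tested.

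The named genes of the other lists had small values too. Ewsr1 had 0.12, Hnrnpu 0.06 and Taf15 -0.07. Zfp36, the gene of tristetraprolin, which binds AU-rich elements and promotes decay, had 0.17 at a level near 1 FPKM (0.972 and 1.22), Zfp36l2 had -0.12 and the neuronal relative of HuR, Elavl3, had 0.05. Of decay genes Lsm14b had -0.09, Dcp1b 0.18 and Cnot1 0.06, and of splicing partners Clk1 had 0.19, Clk4 0.12 and Rbm5 0.11. In the regression on Tia1, 2 of the 98, both in the splicing list, passed with a positive slope and 0 with a negative one, where 0.629% and 0.127% of all genes did.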

How the data were processed

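RNA of the lateral septum was measured in 12 libraries. Per the labels' protocols, Trizol was used to extract RNA, libraries were built from 0.2 µg of it, and sequencing on an Illumina NovaSeq gave read pairs of 150 bases. The submitters' processing notes name HISAT2 2.0.5 and the mm10 build. How reads were counted is not given in the sources used here. FPKM values were deposited by the authors with 1 column per library and a gene length in bases. Columns were assigned to samples by name (WT_CTL to saline, WT_CFA to CFA, and the replicate number). A further 6 columns in a second table matched no sample and were not used.

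FPKM times length fell in whole steps in each library, and 100% of the reads recovered from them lay within 0.01 of a whole number. The divisor of each library differed from a multiple of the median-ratio size factor of these reads by at most 2.55e-08%, so the deposited FPKM is already scaled by median ratio, and that alternative repeats the main values. Of the IDs, 54409 were in GENCODE M21, 98.3% with the same coordinates and strand. Genes with at least 1 FPKM in at least 6 libraries were tested with limma 3.58.1 (R 4.3.3) on log2(FPKM + 1), eBayes with trend, two-sided, Benjamini-Hochberg over all 13345 genes, threshold 0.05. Fold changes on this scale understate those of low genes. Single values were compared by an exact permutation test over 924 assignments. Correlations over 12 libraries used 100000 permutations, and within a group all 720 pairings. The permutation p-values of the 9 relations are not adjusted. A separate test, the limma regression on Tia1, was adjusted over all genes and is given in place of an adjustment over the 9 relations alone.

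Members and lists were chosen with earlier results of these data known. Named genes were the members, the 3 genes of each list with the smallest p, and the 5 genes most and least like Tia1, with predicted genes (Gm numbers, Rik clones, IDs without a symbol) passed over. Promoter motifs were chosen after the sequences were seen. Both fits were also run on simulated reads, with the same dispersion for every gene and no further variation shared by the genes of a library. The simulation therefore does not cover variation that the genes of these libraries share. Alternatives covered pseudocount, filter, scaling, variance model, voom on recovered reads, a replicate block, covariates and left-out libraries. Other steps ran in Python 3.11.15 (scipy 1.17.1, numpy 2.4.6, pandas 2.3.3; figures with matplotlib 3.10.9).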

Additional observations from a re-analysis of the deposited data

Results flagged for a closer look

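CFA 4 lay far from the other 5 CFA libraries in 2 of the 10 genes. Its Elavl1 value was 7.75 FPKM, with the others between 9.93 and 11.0 FPKM, a gap of 0.661 of the group's range. Its Fmr1 value was 5.09 FPKM, with the others between 7.13 and 8.08 FPKM, a gap of 0.681 of the range. Both exceed Dixon's 95% critical value for a group of 6. In all, 44 groups of 6 values were checked, and 2.2 such gaps would be expected by chance.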

How the results depend on the processing

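Under all 24 alternatives 0 of the 10 members passed between CFA and saline. Of 240 fold changes, 236 kept their direction. The reversed ones were Tia1 with the nuclear-retained RNA covariate (-0.0292), Elavl1 as TPM (0.0149) and without CFA 4 (0.0456, with -0.0467 as the lowest when 1 library was left out), and Pabpc1 with the Xist covariate (-0.0161); the cause was not tested. The count of genes that passed over the whole table was 2 with no filter, 2 without the trend, 1 with the replicate block, 1 with the Xist covariate and 2 with the nuclear-retained RNA covariate, and between 1 and 11 when 1 library was left out. It was lowest when saline 5 or CFA 6 was left out, 2 when saline 2 or saline 4 was, 10 when CFA 1 was and highest when saline 3 was. Median ratio scaling repeats the main values by construction. The replicate number was no shared origin by the labels, and deviations of same-numbered libraries correlated between -0.0118 and 0.159, with 2 of 6 pairs above 0.1, so the block has no basis in the design; of 6 saline libraries 2 correlated best with their own number.

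The r of Tia1 with Tial1 lay between 0.69 and 0.90 in 23 alternatives. Reversed were G3bp2 as TPM (0.22), without CFA 6 (0.12, from -0.45 over left-out libraries) and with the nuclear-retained RNA mean regressed out (0.13), Caprin1 without CFA 4 (-0.11, up to 0.56 over left-out libraries), Elavl1 within saline (-0.53), without CFA 4 and CFA 6 (-0.13) and without CFA 4 (-0.27, up to 0.53 over left-out libraries), Pabpc1 within saline (-0.80) and with the striatal mean regressed out (-0.0602), and Atxn2 within saline (0.75) and without CFA 4 and CFA 6 (0.0304). As TPM the r of Pabpc1 was 0.66 (permutation p = 0.0196). The members had at least 1611 reads in each library.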

Other observations

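The deposited FPKM is scaled by median-ratio size factors, and the size factor relative to a library's total of recovered reads differed between libraries by up to a few percent (0.990 to 1.03). That ratio followed Tia1 over the 12 libraries (r = 0.81, permutation p = 0.00121, and rho = 0.87, permutation p = 0.00057; Benjamini-Hochberg adjusted permutation p = 0.00847 for r over 14 library measures). Without CFA 4 and CFA 6 r was 0.80, and with group means subtracted it was 0.82. The TPM scale sets the same total of values per length in each library, and so multiplies all genes of a library by the same factor. On that scale the r to Tia1 was higher than on FPKM for all 9 members: 0.90 for Tial1, 0.85 for Tardbp, 0.78 for Fmr1, 0.66 for Pabpc1, 0.57 for Elavl1, 0.56 for Caprin1, 0.22 for G3bp2, -0.0688 for G3bp1 and -0.17 for Atxn2. How many of all tested genes rose likewise is not given here, so this count has no background and is no trait of the members.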
